A study of Homo sapiens with 6 samples.

Results

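Matrix glycoproteins are secreted proteins that cells lay down between collagen fibres, and transcripts of 10 of them, FN1, TGFBI, THBS1, THBS2, TNC, POSTN, SPARC, FBN1, FBN2 and ELN, were followed here in respiratory epithelial cells exposed to transforming growth factor beta 1 (TGF-β1). The members were the rows that carry these 10 symbols, with 1 row each, out of the 25737 entries of each library. The cells were wild-type A549, a line derived from a lung carcinoma, and wild-type BEAS-2B, a bronchial epithelial line, each at 0, 1 and 5 ng/mL TGF-β1. All cells were grown with 10% fetal bovine serum (FBS), and TGF-β1 was applied for 48 h in RPMI1640 with 1% FBS, starting 24 h after seeding. The controls are labelled as having no treatment, and their medium is not described separately. Each of the 6 conditions is 1 library of 3′-end reads made from 500 ng of total RNA, so no spread between replicates and no p-value can be given. Ratios are given with exact 95% Clopper-Pearson intervals, in parentheses, which cover counting error only.

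Fibronectin, the product of FN1, is assembled by cells into fibrils through integrin receptors and is a classical marker of TGF-β-treated epithelium and of fibrotic lung. Thrombospondins, tenascin C, periostin and SPARC are matricellular proteins, which tune adhesion and growth factor activity more than they bear load, and thrombospondin 1 can release TGF-β from its latent complex. Fibrillins form the microfibrils that store latent TGF-β and on which elastin is deposited.

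Total counts ranged from 4120624 to 7841350 per library, and the deepest was A549 at 1 ng/mL. The cell line labels were checked against marker genes. Epithelial marker counts summed to 4715 to 6015 CPM (counts scaled to 1000000 per library) in A549 and to 683 to 847 CPM in BEAS-2B over 7 genes. CDH1, which encodes E-cadherin, had 640, 30 and 8 counts in A549 at 0, 1 and 5 ng/mL, but only 2, 0 and 2 in BEAS-2B, and EPCAM was at 0 in the 3 BEAS-2B libraries, whereas the keratin gene KRT18 had 717 to 1418 counts there. The list did not move in 1 direction with treatment. In A549 at 1 and 5 ng/mL, KRT7 was 3.52-fold (3.39 to 3.65) and 4.35-fold (4.19 to 4.51) higher than the control. KRT8 had ratios of 0.270 (0.258 to 0.283) and 0.230 (0.218 to 0.242). CLDN4 also lay above its A549 control, and CDH1, EPCAM, KRT18 and KRT19 lay under theirs. In BEAS-2B KRT7 was 2.81-fold (2.62 to 3.02) and 2.46-fold (2.29 to 2.65) higher, and KRT8, KRT18 and KRT19 lay under their controls. Fibroblast markers summed to 302 to 384 CPM over 7 genes in BEAS-2B, mostly from THY1 with 1160 to 1410 counts. PDGFRB had 118 to 178 counts there, while COL6A3, DCN, DPT, LUM and PDGFRA had 7 counts or fewer. The same 7 genes had 14, 179 and 40 counts in A549 at 0, 1 and 5 ng/mL, or 3.38, 22.8 and 6.56 CPM, and 6 of the 7 were highest at 1 ng/mL, among them DCN with 2, 53 and 6 counts and COL6A3 with 0, 51 and 9. Endothelial markers had at most 4 counts in a library over 5 genes, with CDH5, CLDN5 and VWF at 0 throughout. Leukocyte markers had 4 to 80 counts over 5 genes, nearly all from CD68, with at most 4 counts of PTPRC. In such bulk samples, fewer cells of a type and less RNA per cell cannot be told apart.

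Counts scaled by library size are called normalized counts, and adding 1 and taking log2 gives the ND value. A gene was called higher or lower where its fold change (FC) reached 2 and either library of the pair reached an ND value of 7. The limits of 2 and 7 are those of the study. The scaling and the rule of either library were chosen here, so the calls are not the study's own. That ND limit equals 127 normalized counts, or between 101 and 185 raw counts depending on depth. The 1 and 5 ng/mL comparisons of a line share its control library. In A549 at 1 ng/mL, FN1, TGFBI, THBS1, SPARC and FBN1 were called higher, 5 of the 10 members, against 10.9% of all 7007 genes past the ND limit. At 5 ng/mL, 3 members were called higher in A549, namely FN1, TGFBI and THBS1, against 16.1% of genes. In BEAS-2B, FN1, TGFBI, THBS1, TNC and SPARC were called higher at 1 ng/mL, 5 members, where 5.66% of genes were. FN1, TGFBI, THBS1, TNC and FBN1 were called higher at 5 ng/mL, again 5 members, where 7.33% of genes were. No member was called lower in these 4 comparisons (0 of 10 in each). Past the ND limit stood 5 and 3 members in A549 at 1 and 5 ng/mL, and 8 and 8 in BEAS-2B. The remaining members, FBN2 in A549 among them, could not be called lower. Of the genes past that limit, 12.6% and 17.1% were lower in A549 at 1 and 5 ng/mL and 9.13% and 11.6% in BEAS-2B. The median log2 FC over all 10 members was 2.57 and 1.25 in A549 and 1.13 and 1.11 in BEAS-2B at 1 and 5 ng/mL, a value that includes members with few counts. Over the members past the ND limit it was 2.96 and 2.93 in A549 and 1.22 and 1.27 in BEAS-2B, beside 0.09, 0.11, 0.01 and 0.03 over all genes past that limit. A member with a low control passed the ND limit only where it was high, so the members that passed could not all have stayed uncalled. The study itself selected FN1 and THBS1 as core genes from these libraries, and listed TGFBI in a network ranking of genes it had called. The calls of these genes are thus no independent evidence of direction.

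**Figure D1:**
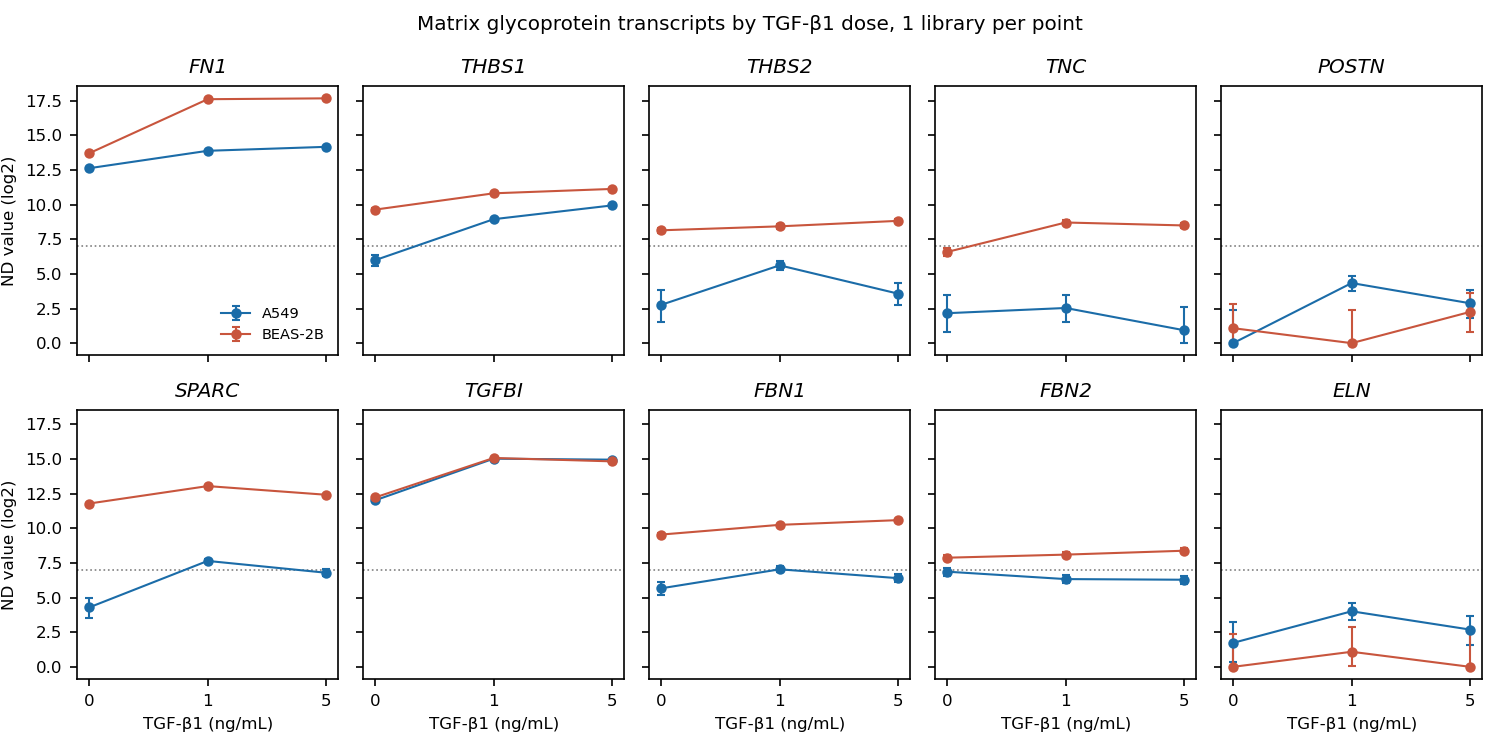
ND value (log2 of normalized count plus 1) of each of the 10 genes at 0, 1 and 5 ng/mL TGF-β1, drawn at equal steps, in A549 (blue) and BEAS-2B (red). Each point is 1 library, bars are exact 95% Poisson intervals and the dotted line is the ND limit of 7. The TGFBI lines of both cell types nearly coincide, and FN1, THBS1, THBS2, TNC, SPARC, FBN1 and FBN2 lie higher in BEAS-2B at every dose, with the FN1 gap wider after treatment.

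The promoters of the genes called in all 4 comparisons, FN1, THBS1 and TGFBI, are shown with that of TNC, which was called in BEAS-2B alone. The sequences are RefSeq's for GRCh38.p14, read 5′ to 3′ on the strand of the gene, and each begins 250 bases before the gene's start and stops before any annotated transcript begins. Capitals mark a cAMP response element (CRE, TGACGTCA), a SMAD box (CAGAC), a TEAD site (GGAATG) or a GC box (GGGCGG), on either strand, and neighbouring GC boxes overlap in FN1. The stretches are chr2:215436173-215436318 on the minus strand for FN1, chr15:39580829-39581078 on the plus strand for THBS1, chr5:136028738-136028894 on the plus strand for TGFBI, and chr9:115118258-115118407 on the minus strand for TNC.
FN1: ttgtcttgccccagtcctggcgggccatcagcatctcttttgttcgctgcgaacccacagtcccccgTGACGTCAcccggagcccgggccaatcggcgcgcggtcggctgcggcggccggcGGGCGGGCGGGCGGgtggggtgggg
THBS1: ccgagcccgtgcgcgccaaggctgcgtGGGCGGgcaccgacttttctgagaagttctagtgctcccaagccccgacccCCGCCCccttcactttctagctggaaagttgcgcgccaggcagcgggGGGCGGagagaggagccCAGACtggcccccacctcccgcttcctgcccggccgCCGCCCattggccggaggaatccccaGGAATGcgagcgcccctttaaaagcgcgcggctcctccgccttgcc
TGFBI: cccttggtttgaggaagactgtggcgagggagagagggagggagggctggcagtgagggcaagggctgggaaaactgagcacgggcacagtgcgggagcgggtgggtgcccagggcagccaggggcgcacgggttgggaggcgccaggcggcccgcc
TNC: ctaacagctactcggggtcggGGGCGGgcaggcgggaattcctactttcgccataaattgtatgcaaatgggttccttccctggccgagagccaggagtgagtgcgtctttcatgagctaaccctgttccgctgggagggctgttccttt
Over the 250 bases before the start, 9 of the 10 members could be searched, and ELN was not among the promoters used. The CRE was found in FN1 alone of the 9, at positions -183 to -176 from the start, and in 1.65% of all 35116 promoters. THBS1 held a SMAD box at -108 to -104 and a TEAD site at -46 to -41. SMAD boxes stood in 4 of the 9 windows (THBS1, THBS2, TNC and POSTN) and in 38% of all promoters, TEAD sites in 4 (THBS1, THBS2, SPARC and FBN1) against 11.9%, and GC boxes in 5 (FN1, THBS1, TNC, TGFBI and FBN2) against 42.6%. An AP-1 site (TGANTCA) was found in POSTN alone, against 6.57% of promoters, and a TATA box (TATAAA) in THBS2 and POSTN, against 10.7%. Only these exact letters were searched, so variants such as the TATAAG near the start of FN1 and TNC were not included. The TGFBI stretch shown holds no match, and its GC boxes lie nearer the start. GC content was 76.4% in FN1, 69.6% in THBS1, 72.8% in TGFBI and 54.8% in TNC, beside a median of 58% over all promoters. The letters found describe these windows only and do not show that a factor is bound.

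FN1 (ENSG00000115414; GRCh38 chromosome 2, 215360440 to 215436172, minus strand) was the member with the largest count in BEAS-2B. Its normalized counts in A549 were 6324, 15121 and 18442 at 0, 1 and 5 ng/mL, and in BEAS-2B they were 13351, 199904 and 208711. Every treated library lay above both controls, and the treated BEAS-2B libraries stood far above the rest. In BEAS-2B FN1 was 15.0-fold higher at 1 ng/mL (14.7 to 15.3) and 15.6-fold higher at 5 ng/mL (15.3 to 15.9). The A549 ratios were 2.39 (2.32 to 2.46) and 2.92 (2.83 to 3.01). By raw count, FN1 went from rank 15 among all entries to rank 1 in both treated BEAS-2B libraries, and from rank 85 to ranks 36 and 28 in A549. Most of the difference to control was already there at 1 ng/mL, since 5 ng/mL gave 1.04 times the 1 ng/mL level in BEAS-2B (1.04 to 1.05) and 1.22 times in A549 (1.20 to 1.24). The gene with the profile over the 6 libraries nearest to FN1 was LTBP2, a latent TGF-β binding protein, at a root mean square distance of 0.64 on the log2 scale, followed by LOC100129940 at 0.77 and STAB1 at 0.81.

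TGFBI (ENSG00000120708; chromosome 5, 136028895 to 136063818, plus strand) encodes an adhesion protein named for its induction by TGF-β. Its normalized counts were 4154, 33357 and 31743 in A549 and 4794, 34561 and 29164 in BEAS-2B. The 2 cell lines were close to each other at every dose, and all treated libraries were well above the controls. At 1 ng/mL TGFBI was 8.03-fold higher in A549 (7.76 to 8.31) and 7.21-fold higher in BEAS-2B (6.98 to 7.44). At 5 ng/mL the ratios were 7.64 (7.38 to 7.91) and 6.08 (5.89 to 6.29), so the lower dose gave the higher level in each line. The step from 1 to 5 ng/mL was a ratio of 0.952 in A549 (0.939 to 0.965) and 0.844 in BEAS-2B (0.830 to 0.858). Nearest in profile were ARFGAP1 and the collagen genes COL7A1 and COL4A2, each at 0.35.

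**Figure D2:**
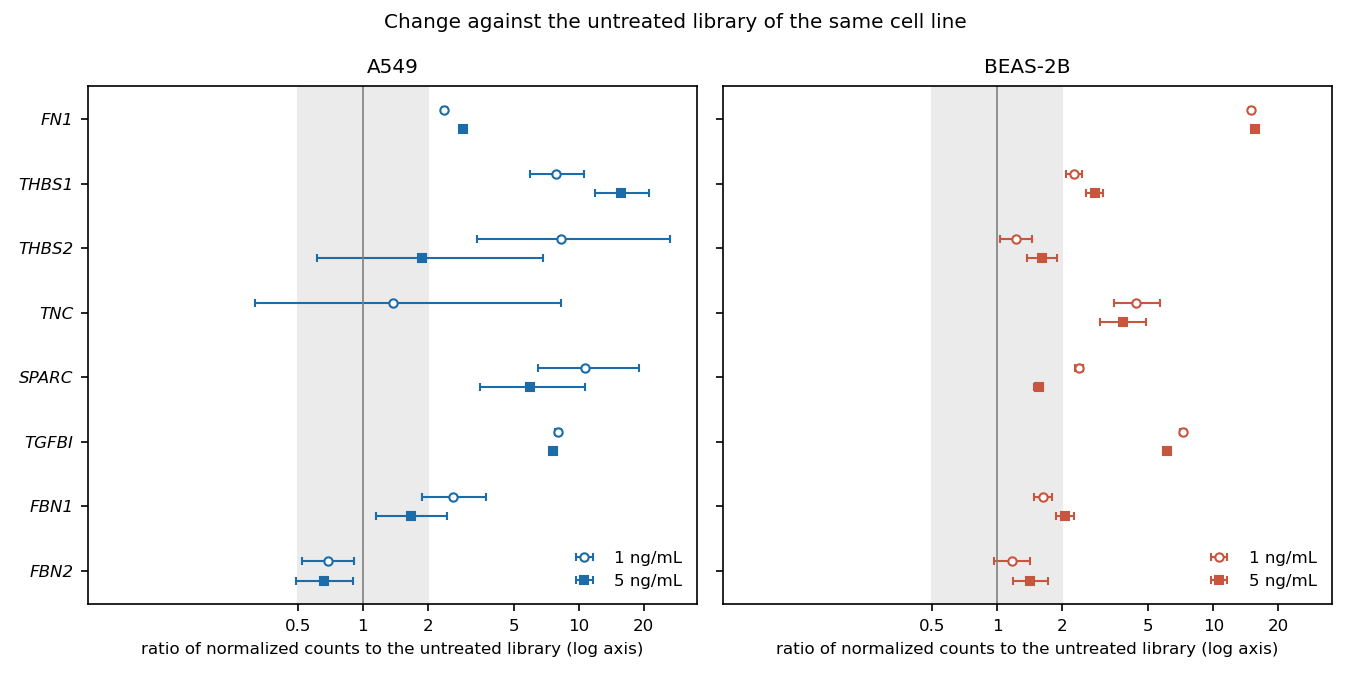
Ratio of normalized counts to the untreated library of the same line (log axis) for the 8 genes that reached the ND limit of 7 in any of the 6 libraries, at 1 ng/mL (open circles) and 5 ng/mL (filled squares), with exact 95% counting intervals. The grey band spans ratios under the FC limit of 2. No ratio is drawn for TNC in A549 at 5 ng/mL, where both counts were 3 or fewer. FN1 lies farther right in BEAS-2B (15.6 against 2.92 at 5 ng/mL), THBS1 farther right in A549 (15.7 against 2.82), and FBN2 lies left of 1 in A549 alone.

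THBS1 (ENSG00000137801; chromosome 15, 39581079 to 39599466, plus strand) encodes thrombospondin 1. Its ratio to control was larger in A549, the reverse of FN1, while its level was higher in BEAS-2B at every dose. Normalized counts were 62.6, 493 and 983 in A549 and 796, 1802 and 2243 in BEAS-2B. The untreated A549 library was the lowest of the 6, and at 5 ng/mL A549 lay above untreated BEAS-2B. THBS1 was 7.87-fold higher at 1 ng/mL in A549 (5.97 to 10.6) and 15.7-fold higher at 5 ng/mL (12.0 to 21.1), from 54 raw counts in the control. In BEAS-2B the ratios were 2.26 (2.07 to 2.47) and 2.82 (2.58 to 3.08). THBS1 and FN1 were the members that lay higher at 5 than at 1 ng/mL beyond counting error in both lines. The THBS1 step in A549 was a ratio of 2.0 (1.82 to 2.20), which before rounding lay just under the FC limit and which 4 of the other settings tried, among them DESeq2 size factors, put over it. The nearest profiles were those of PHLDB1 at 0.27, HBEGF at 0.33 and HRH1 at 0.35.

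THBS2 (ENSG00000186340; chromosome 6, 169215780 to 169254044, minus strand) encodes a related thrombospondin that lacks the TGF-β-activating sequence of thrombospondin 1. It had 5, 70 and 12 raw counts in A549, and normalized counts of 282, 344 and 453 in BEAS-2B. BEAS-2B was above A549 at each dose. In BEAS-2B the ratio to control was 1.22 at 1 ng/mL (1.03 to 1.45) and 1.61 at 5 ng/mL (1.36 to 1.89), under the FC limit. The A549 ratio of 8.30 at 1 ng/mL (3.39 to 26.4) stood below the ND limit and was 1.88 at 5 ng/mL (0.616 to 6.81). HYI at 0.57, FBN1 at 0.62 and PXDN at 0.72 had the nearest profiles.

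TNC (ENSG00000041982; chromosome 9, 115019578 to 115118257, minus strand), which encodes tenascin C, an extracellular protein of wound and tumour stroma, was counted almost only in BEAS-2B. A549 had 3, 7 and 1 raw counts, and BEAS-2B had normalized counts of 94.8, 417 and 360. No A549 library overlapped a BEAS-2B library. TNC was 4.40-fold higher at 1 ng/mL in BEAS-2B (3.47 to 5.64) and 3.80-fold higher at 5 ng/mL (2.97 to 4.90), and the treated libraries did not differ beyond counting error, with a ratio of 0.863 (0.737 to 1.01). In A549 the ratio at 1 ng/mL was 1.38 (0.316 to 8.29), so that a difference was not detectable at this depth. MYL9 at 0.77, ADAM12 at 0.81 and STC2 at 0.92 had the nearest profiles.

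SPARC (ENSG00000113140; chromosome 5, 151661096 to 151687165, minus strand) encodes a collagen-binding matricellular protein. Its normalized counts were 18.5, 199 and 110 in A549 and 3534, 8465 and 5484 in BEAS-2B. In each line the 1 ng/mL library was the highest and the control the lowest. SPARC was 10.7-fold higher at 1 ng/mL in A549 (6.51 to 19.1) and 5.92-fold higher at 5 ng/mL (3.50 to 10.7), from 16 raw counts in the control, and the second was not called because its ND value was 6.79. In BEAS-2B it was 2.40-fold higher at 1 ng/mL (2.30 to 2.50), and the ratio at 5 ng/mL was 1.55 (1.48 to 1.63). From 1 to 5 ng/mL the ratio was 0.551 in A549 (0.442 to 0.683) and 0.648 in BEAS-2B (0.624 to 0.673). MYL9 at 0.93, HYI at 0.95 and PXDN at 1.18 were nearest in profile.

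POSTN (ENSG00000133110; chromosome 13, 37562583 to 37598844, minus strand), which encodes periostin, a fibroblast product used as a marker of lung fibrosis, had 0, 28 and 7 raw counts in A549 and 1, 0 and 3 in BEAS-2B. The upper limit for a library at 0 was set at 3 counts, or 0.383 to 0.728 CPM. Against that floor, A549 was at least 5.53-fold higher at 1 ng/mL and at least 1.83-fold higher at 5 ng/mL, at counts below the ND limit throughout. The exact intervals, which also cover the counting error of the treated library, began at 4.21 and 1.13. No ratio was formed in BEAS-2B.

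FBN1 (ENSG00000166147; chromosome 15, 48408306 to 48645849, minus strand), which encodes the main fibrillin of adult microfibrils, had normalized counts of 49.8, 131 and 83.5 in A549 and 747, 1216 and 1540 in BEAS-2B. BEAS-2B was above A549 at each dose, and only in BEAS-2B was the 5 ng/mL library above the 1 ng/mL library. FBN1 was 2.62-fold higher at 1 ng/mL in A549 (1.87 to 3.74), with an ND value of 7.04 just past the limit, and the ratio was 1.68 at 5 ng/mL (1.15 to 2.47). In BEAS-2B the ratio was 1.63 at 1 ng/mL (1.48 to 1.80), and FBN1 was 2.06-fold higher at 5 ng/mL (1.87 to 2.27), with an interval that spans the FC limit. The nearest profiles included those of SMARCA4 at 0.21 and ZNF608 at 0.25.

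FBN2 (ENSG00000138829; chromosome 5, 128257909 to 128659185, minus strand), which encodes a fibrillin known mainly from development, lay on opposite sides of its control in the 2 lines. Normalized counts were 116, 79.7 and 77.1 in A549 and 234, 273 and 333 in BEAS-2B. The treated libraries lay under the control in A549 and over it in BEAS-2B. The A549 ratios were 0.688 at 1 ng/mL (0.522 to 0.908) and 0.666 at 5 ng/mL (0.493 to 0.898). The BEAS-2B ratios were 1.17 (0.967 to 1.41) and 1.42 (1.18 to 1.71), and all 4 stayed under the FC limit. NEK6 at 0.12, SERPINH1 at 0.16 and MXI1 at 0.17 had the nearest profiles.

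ELN (ENSG00000049540; chromosome 7, 74027789 to 74069907, plus strand), which encodes elastin, was near the floor in every library. It had 2, 22 and 6 raw counts in A549 and 0, 1 and 0 in BEAS-2B. The A549 ratios were 6.52 at 1 ng/mL (1.60 to 57.2) and 2.35 at 5 ng/mL (0.420 to 23.8). The annotated genes on the opposite strand of the members overlap the last exon of none of them, and of the 3 neighbours with an entry, FSIP1 at THBS1 had 1 to 10 counts and SLC27A6 at FBN2 and DEC1 at TNC had 0.

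Several members with low counts in A549 were highest at 1 ng/mL. In that line 6 of the 10 members were higher at 1 than at 5 ng/mL beyond counting error, namely THBS2, POSTN, SPARC, TGFBI, FBN1 and ELN, and 2 were higher at 5 ng/mL, FN1 and THBS1. The ratios of 5 to 1 ng/mL were 0.226 for THBS2 (0.112 to 0.421), 0.330 for POSTN (0.122 to 0.773), 0.360 for ELN (0.119 to 0.916) and 0.639 for FBN1 (0.493 to 0.824). The fibroblast marker counts of 14, 179 and 40 were also highest in the 1 ng/mL library, and their part in these values was not tested. In BEAS-2B 2 members were higher at 1 ng/mL, SPARC and TGFBI, and 5 were higher at 5 ng/mL, FN1, THBS1, THBS2, FBN1 and FBN2, with ratios of 1.25 for THBS1 (1.16 to 1.33), 1.32 for THBS2 (1.13 to 1.54), 1.27 for FBN1 (1.17 to 1.38) and 1.22 for FBN2 (1.02 to 1.45). At high counts a ratio near 1 lies beyond counting error, such as 0.952 for TGFBI in A549. The share of all genes that differ between the doses beyond counting error was not computed, so these counts describe the members only. By the FC and ND limits 0 of the 10 members were called between the doses in either line, where 3.4% of genes were called in A549 and 0.904% in BEAS-2B in either direction.

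The level of the members was then compared between the lines at equal dose. Without treatment, FN1, THBS1, THBS2, SPARC, FBN1 and FBN2 were called higher in BEAS-2B, 6 of the 10 members, against 18.9% of genes higher and 18.1% lower. At 5 ng/mL, TNC was added to these, which made 7 of the 10, against 12.1% of genes higher and 14.8% lower. These shares are of genes past the ND limit, which 7 members passed untreated and 8 at 5 ng/mL. Untreated, THBS1, THBS2, SPARC, FBN1 and FBN2 passed it through BEAS-2B alone. At 5 ng/mL, THBS2, TNC, SPARC, FBN1 and FBN2 did. Such members could be called higher in BEAS-2B or not at all, so their direction is no independent evidence. TGFBI was the exception among members past the ND limit, with a ratio of BEAS-2B to A549 of 1.15 untreated (1.10 to 1.21), 1.04 at 1 ng/mL (1.02 to 1.05) and 0.919 at 5 ng/mL (0.904 to 0.934). The last of these changed sides, to a log2 ratio of 0.03, when libraries were scaled to their totals without the 10 members.

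The gap between the lines did not move in 1 direction. For FN1 it widened from 2.11-fold (2.04 to 2.18) to 13.2-fold at 1 ng/mL (13.0 to 13.4) and 11.3-fold at 5 ng/mL (11.2 to 11.5). For THBS1 it narrowed from 12.7-fold (9.65 to 17.1) to 3.66-fold (3.35 to 4.0) and 2.28-fold (2.11 to 2.46). SPARC had the largest untreated gap with both lines above 3 counts, 191-fold (117 to 334), which was 42.5-fold at 1 ng/mL (37.8 to 47.9) and 50.0-fold at 5 ng/mL (41.7 to 60.4). These shifts restate the unequal responses of the lines, since they rest on the same 6 libraries. For FBN1 the ratio was 15.0 untreated (11.0 to 20.9), 9.32 at 1 ng/mL (7.98 to 10.9) and 18.5 at 5 ng/mL (14.9 to 23.1), and for FBN2 it was 2.02 (1.59 to 2.59), 3.43 (2.74 to 4.32) and 4.31 (3.36 to 5.57). THBS2 was 48.7-fold higher in untreated BEAS-2B (20.6 to 151), 7.16-fold at 1 ng/mL (5.51 to 9.42) and 41.6-fold at 5 ng/mL (23.5 to 81.4). TNC, with at most 7 counts in A549, gave ratios of 27.3 (9.02 to 135), 86.8 (41.7 to 217) and 397 (70.7 to 15737). POSTN and ELN lay higher in A549 at 1 ng/mL, where A549 had at least 5.70-fold more POSTN against the floor of 3 counts, with an exact interval that began at 4.34, and the ratio of BEAS-2B to A549 was 0.0744 for ELN (0.00180 to 0.461).

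**Figure D3:**
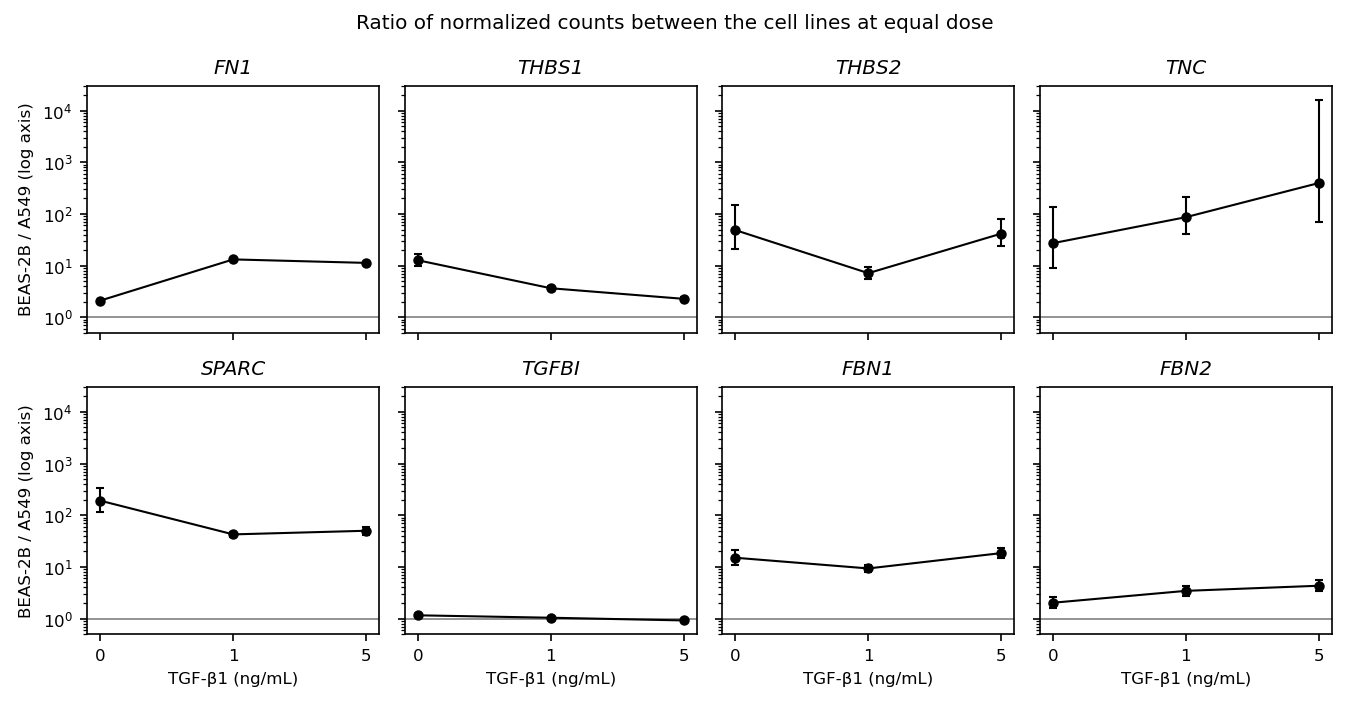
Ratio of normalized counts of BEAS-2B to A549 (log axis) at 0, 1 and 5 ng/mL TGF-β1, drawn at equal steps, for the 8 genes that reached the ND limit of 7 in any of the 6 libraries. Bars are exact 95% counting intervals and the grey line marks equal levels. FN1 lies farther from the line after treatment, THBS1 lies nearer to it, and TGFBI stays close to it, between 0.919 and 1.15.

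Together the 10 members took 0.224% of all counts in untreated A549 (0.219 to 0.228), 0.918% at 1 ng/mL (0.912 to 0.925) and 0.930% at 5 ng/mL (0.922 to 0.937). In BEAS-2B they took 0.502% (0.496 to 0.509), 4.77% (4.75 to 4.79) and 4.78% (4.76 to 4.80). The share was thus 4.11 and 4.16 times the control in A549 and 9.49 and 9.52 times the control in BEAS-2B. These are shares of 3′-end reads, not divided by transcript length.

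Different genes carried the share in the 2 lines. FN1 alone took 0.132%, 0.281% and 0.333% of all counts in A549 and 0.281%, 3.86% and 4.02% in BEAS-2B. TGFBI took 0.0865%, 0.619% and 0.573% in A549 and 0.101%, 0.667% and 0.562% in BEAS-2B. The other 8 genes took 0.00538%, 0.0184% and 0.0231% in A549 and 0.120%, 0.242% and 0.201% in BEAS-2B. Among member counts at 5 ng/mL, TGFBI was the largest in A549 with 61.7% and FN1 was the largest in BEAS-2B with 84.1%, whereas FN1 led in both controls, with 58.9% in A549 and 56.0% in BEAS-2B.

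**Figure D4:**
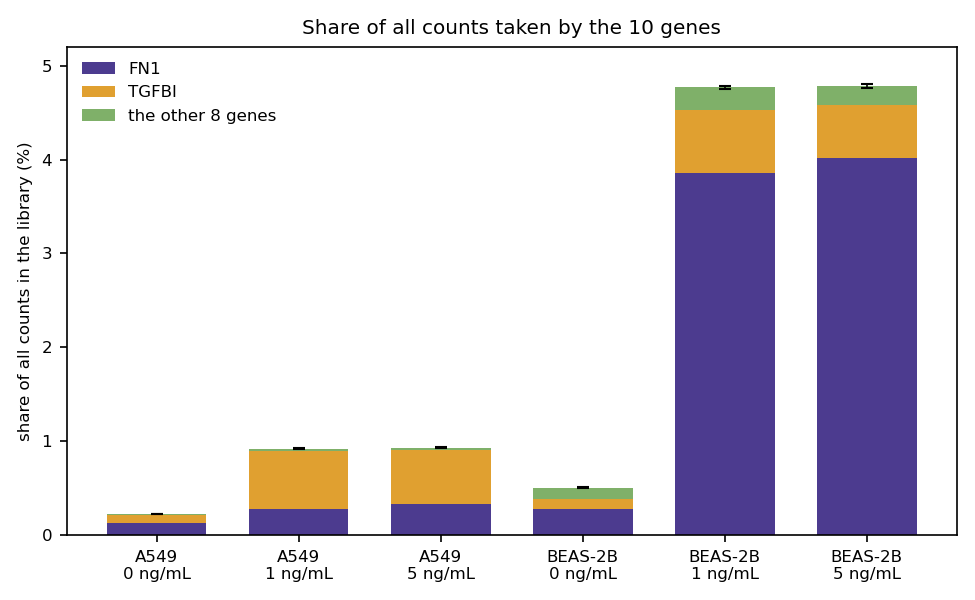
Share of all counts in each of the 6 libraries (%) taken by FN1, TGFBI and the other 8 genes, stacked, with the exact 95% interval of the total. The treated BEAS-2B libraries reach 4.77% and 4.78%, mostly FN1, and the treated A549 libraries 0.918% and 0.930%, mostly TGFBI.

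Of the receptors of these proteins, a list of 17 genes, 10 and 9 passed the ND limit in A549 at 1 and 5 ng/mL, and 10 and 11 in BEAS-2B. In A549 3 were called higher and 0 lower at 1 ng/mL (10.9% and 12.6% of all genes), and 5 and 1 at 5 ng/mL (16.1% and 17.1%). In BEAS-2B 3 were higher and 2 lower at 1 ng/mL (5.66% and 9.13% of all genes), and 5 and 2 at 5 ng/mL (7.33% and 11.6%). ITGA5, the fibronectin-specific integrin α subunit, was called higher in all 4 comparisons, with log2 FC of 1.73 and 3.03 in A549 and 1.81 and 1.60 in BEAS-2B at 1 and 5 ng/mL. ITGAV, the α subunit of the integrins that bind fibronectin, periostin and latent TGF-β, was called in all 4 too, at 1.35, 1.62, 2.13 and 2.0 in the same order. SDC4, a heparan sulfate co-receptor for fibronectin, differed between the lines, at 0.95 and 1.46 in A549 and -1.69 and -1.77 in BEAS-2B. CD47, a thrombospondin 1 receptor, was called lower in BEAS-2B at -1.70 and -2.14, and was 0.19 and 0.02 in A549. ITGB1, the partner of ITGA5, was called higher in BEAS-2B at 5 ng/mL alone, at 1.06. The median log2 FC of list genes past the ND limit was 0.50, 1.39, 0.57 and 0.99 in the same order.

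The list for elastic fibre and fibronectin assembly holds 20 genes, of which 10, 10, 11 and 11 passed the ND limit in A549 at 1 and 5 ng/mL and BEAS-2B at 1 and 5 ng/mL. Of these, 2, 3, 3 and 3 were called higher, where 10.9%, 16.1%, 5.66% and 7.33% of all genes were, and 1, 2, 1 and 2 lower, where 12.6%, 17.1%, 9.13% and 11.6% were. Its median log2 FC was 0.56, 0.52, 0.42 and 0.53 in that order. LTBP3, which encodes a latent TGF-β binding protein, was higher in A549 at 2.61 and 2.56. LTBP1 was higher in BEAS-2B at 2.33 and 2.43, and LTBP2 was called higher there at 2.69 and 2.78 and in A549 at 5 ng/mL at 1.22. TGM2, the crosslinking transglutaminase 2, was called higher in BEAS-2B alone, at 2.44 and 2.37. The crosslinking oxidases LOX and LOXL1 were called in none of the 4 comparisons, and LOXL2 was called lower in BEAS-2B at 5 ng/mL, at -1.03. THSD4, which encodes a microfibril-associated protein, was called lower in all 4 comparisons, at -1.52, -2.06, -1.26 and -2.17.

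Of 71 other matrix glycoproteins, 18, 18, 24 and 25 entries passed the ND limit in those 4 comparisons, with 7, 8, 5 and 6 called higher and 4, 4, 5 and 7 called lower, to be read against the same shares of all genes. Their medians were 0.56, 0.75, 0.25 and 0.24. CTGF, a matricellular TGF-β target, was called higher in all 4 comparisons, at 2.09, 3.23, 1.43 and 1.47. The related matricellular gene CYR61 was called lower in all 4, at -1.49, -3.01, -3.30 and -4.07, and so was SMOC1, of the SPARC family, at -1.78, -2.22, -1.41 and -1.66. MFGE8 was called higher in A549 at 2.26 and 2.53, and AEBP1 in BEAS-2B at 5 ng/mL at 2.91. MATN2 and FBLN2 were called lower in BEAS-2B, at -3.34 and -4.63 for MATN2 and -2.43 and -2.73 for FBLN2. Some genes, such as the LTBP genes and THSD4, stand in both of these lists.

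A list of 10 TGF-β response genes was read in the same libraries. It was chosen with earlier results of these data known, so its direction is no independent check of the exposure. Past the ND limit were 9 and 9 genes in A549 and 8 and 8 in BEAS-2B. Of these, 4 and 7 were called higher in A549 and 8 and 8 in BEAS-2B at 1 and 5 ng/mL, with 0 lower. The list medians were 0.75, 1.33, 2.43 and 2.52, beside 0.09, 0.11, 0.01 and 0.03 over all genes. Of all genes past that limit, 10.9%, 16.1%, 5.66% and 7.33% were called higher and 12.6%, 17.1%, 9.13% and 11.6% lower. PMEPA1 was called in all 4 comparisons at 2.19, 2.33, 4.42 and 4.45, and TGFB1 itself at 2.41, 2.66, 2.16 and 2.27. PMEPA1, as FN1, thus had its larger log2 FC in BEAS-2B.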

How the data were processed

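The series holds 1 library for each cell line (A549, BEAS-2B) and TGF-β1 dose (0, 1 and 5 ng/mL), and samples were grouped by their labels. Total RNA was made into QuantSeq 3′-mRNA libraries, which read the 3′ end of each transcript. The values the authors deposited are raw counts of reads for each gene symbol, unscaled, over the same 25737 entries in each library. The submitters' processing notes name Bowtie2, bedtools and hg19, without roles, and the paper names ExDEGA; annotation, filters and strand setting are not given in the sources used here. A count of reads from overlapping genes may therefore not be separable by strand.

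Counts were scaled over the 6 libraries with TMM factors (edgeR 4.0.16, R 4.3.3). Counts were divided by effective library size and brought back to the scale of the average library, and FC was computed after adding a pseudocount of 1 to each normalized count. Genes were called at an FC of at least 2 and an ND value of at least 7. With 1 library per condition no test was run. Ratio intervals are exact 95% Clopper-Pearson intervals and level intervals are exact Poisson intervals, and both cover counting error alone. The paper describes no molecular identifiers, so copies of 1 molecule may be counted more than once. The intervals may then be too narrow even for counting error. Libraries at 0 were bounded by 3 counts. The other tools were matplotlib 3.10.9, scipy 1.17.1, pandas 2.3.3, numpy 2.4.6 and Python 3.11.15. The calling rule and the ratio intervals were tried on simulated libraries with counting error alone. The scaling, the shares, the nearest profiles and the promoter search were not.

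The members and gene lists were chosen with earlier results of these data known. Besides the members, the text names list genes called at both doses in both lines, those with the 3 largest differences in each direction at 5 ng/mL, receptor and assembly genes, and the 3 genes with the nearest profile by root mean square difference of centred ND values among genes averaging an ND value of 7 or more. The lists were receptors, assembly genes, other matrix glycoproteins, TGF-β response genes and markers of epithelial, fibroblast, endothelial and leukocyte cells. Gene positions are from GENCODE v29 (GRCh38), which is not the build named with the counts, so the intervals in which reads were counted may differ. Promoters are from RefSeq (GRCh38.p14). Alternatives were DESeq2 1.42.0 size factors, total counts with and without the members, upper quartile factors, TMM within each line, a filter on low counts, other pseudocounts, other ND and FC limits, and log2(CPM + 1). Some genes under the naming rule are not reported here.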

Additional observations from a re-analysis of the deposited data

Results flagged for a closer look

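These genes had log2 FC of opposite sign in the 2 cell lines at both doses, and the difference between the lines was not tested, since each value rests on 1 library per condition. Differences are log2 FC at 5 ng/mL in BEAS-2B minus that in A549. Among the members, FBN2 differed by 1.08, from -0.53 and -0.58 in A549 to 0.22 and 0.50 in BEAS-2B at 1 and 5 ng/mL. Among receptors, the difference was -3.24 for SDC4, -2.16 for CD47 and 2.81 for ITGB3, the last from 5 to 21 counts in A549. Not all of these signs lay beyond counting error. The CD47 ratios in A549 were 1.14 at 1 ng/mL (0.959 to 1.36) and 1.01 at 5 ng/mL (0.842 to 1.22). For ITGB3 in A549 the ratio at 1 ng/mL was 0.958 (0.458 to 2.08). The FBN2 ratio in BEAS-2B at 1 ng/mL was 1.17 (0.967 to 1.41). For EFEMP1 in A549 at 5 ng/mL it was 1.52 (0.855 to 2.81). MATN2 differed by -5.36, from 1.48 and 0.73 in A549 to -3.34 and -4.63 in BEAS-2B. SLIT3 differed by -3.26, from 1.05 and 1.14 to -0.83 and -2.12. EFEMP1, an elastic fibre-associated fibulin, differed by -1.98, from 2.17 and 0.59 to -0.59 and -1.39. GAS6 differed by -1.79 and the crosslinking enzyme gene LOXL2 by -1.51. In A549, FBN2, ITGB3, MATN2, EFEMP1 and GAS6 stayed below the ND limit at every dose, and in BEAS-2B SLIT3 did.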

How the results depend on the processing

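No member turned its direction in a comparison where it was called. Of 672 member fold changes under alternatives, 43 moved beyond their counting interval, and of 132 counts of called members, 19 moved by over 1.5 times. Scalings moved a member's log2 FC by -0.21 to 0.15. Total counts put the median log2 FC of all genes at -0.07 and -0.09 in A549 and -0.11 and -0.10 in BEAS-2B at 1 and 5 ng/mL, in place of 0.09, 0.11, 0.01 and 0.03. For A549 at 1 ng/mL, the 5 calls became 3 at an ND minimum of 8 or an FC limit of 3, 8 with no ND minimum, and 2 with the ND minimum in both libraries or with log2(CPM + 1). With no ND minimum, 6 members were called in A549 at 5 ng/mL, 4 between the doses in A549 and 2 between them in BEAS-2B. An FC limit of 3 left 3 calls at each dose in BEAS-2B. An FC limit of 1.5 gave 3 calls between the doses in A549 and 1 in BEAS-2B. DESeq2 size factors, upper quartile factors, TMM within each line and the filter on low counts each called 1 member between the doses in A549, THBS1. Between the lines, the ND minimum in both libraries left 1 call untreated and 2 at 5 ng/mL, and log2(CPM + 1) left 4 at 5 ng/mL. Without mitochondrial and ribosomal protein genes in the total, the members' share was 0.251%, 1.07% and 1.06% in A549 and 0.553%, 5.35% and 5.30% in BEAS-2B. Without FN1 the share was 0.0920%, 0.639% and 0.599% in A549 and 0.222%, 0.946% and 0.795% in BEAS-2B. TMM factors without the A549 library at 1 ng/mL, an alternative chosen after seeing the data, changed no count. Leaving out a replicate was not possible with 1 library per condition. No paired analysis was possible because there is 1 library per condition.

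Counting intervals do not cover differences between cultures. At 3 to 30 counts, as for TNC, POSTN and ELN in A549, intervals of ratios span several-fold.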
